A study of Mus musculus with 18 samples.

Results

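The 1345 open regions of mouse chromosome 14 were described across naive CD4 T cells sorted for a low or a high level of an Nr4a1 reporter. They were taken from 33115 regions in all, made by merging every peak that overlapped by at least 1 bp in the 18 deposited ATAC-seq peak lists (mm10), and keeping those on chromosome 14. The cells came from C57BL6/J mice with the genotype label WT and the treatment label "no treatment", and were freshly prepared from the spleen, the mesenteric lymph node or the axillary lymph node. In each organ, naive (TN) cells with low Nr4a1-dsGFP and cells with high Nr4a1-dsGFP were sorted, which gave 6 groups of 3 libraries, labelled as biological replicates. The labels name the reporter only in the sort, not in the genotype, and give no age and no link between libraries and animals. Chromosome 14 was chosen by its peak numbers and reads in the high libraries against the low ones, seen in an earlier look at these data, so every high against low value here is a description. A p from Fisher's exact test serves below only to order and count regions. The other 18 autosomes, measured in the same way, stand beside it.

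Nr4a1 is an immediate gene of T cell receptor signalling, and its reporter reads out how strongly a naive T cell has recently been signalled by self ligands (tonic stimulation). ATAC-seq maps DNA that is open to a transposase. Open regions lie at promoters, which are open in most cells, and at enhancers, which differ more between cell states. Chromosome 14 of the mouse holds the T cell receptor alpha locus with the delta locus inside it, the granzyme cluster, and genes of T cell signalling such as Egr3, a transcription factor induced by the receptor.

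The promoters of 5 genes are shown. They overlapped regions, open in every library, that lay at both ends of the high minus low range among such promoters. Each is the 250 bases before an annotated start, taken from RefSeq (GRCm38.p6), written 5′ to 3′ on the gene's strand. That start need not be the gene's outermost end. The Zfhx2 bases lay inside the annotated gene, and the Ccser2 bases partly so. Capitals mark short motifs on either strand. A GC box, which binds Sp family factors at many promoters without a TATA box, was searched as the letters GGGCGG. Sites of ETS factors, a large family with many members in lymphocytes, were searched as CCGGAAGT. A CCAAT box, which binds the NF-Y complex close to the start of many genes, was searched as the letters ATTGG. A site of AP-1, the factor made by Fos and Jun proteins after T cell receptor signals, was searched as TGACTCA. Where a promoter had more than 1 motif, none overlapped in these 5. The open regions of Pnp and Zfhx2 covered only part of the bases shown, and the motifs marked there lay outside them. The Pnp, Zfhx2, Ift88 and Sap18 regions were among the 8 with the largest difference, and the Ccser2 region was among the 5 with the smallest.
Pnp: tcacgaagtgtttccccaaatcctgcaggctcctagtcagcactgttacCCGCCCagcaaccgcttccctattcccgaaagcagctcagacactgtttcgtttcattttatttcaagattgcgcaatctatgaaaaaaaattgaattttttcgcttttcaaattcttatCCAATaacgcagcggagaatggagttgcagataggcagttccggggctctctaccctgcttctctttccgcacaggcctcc
Zfhx2: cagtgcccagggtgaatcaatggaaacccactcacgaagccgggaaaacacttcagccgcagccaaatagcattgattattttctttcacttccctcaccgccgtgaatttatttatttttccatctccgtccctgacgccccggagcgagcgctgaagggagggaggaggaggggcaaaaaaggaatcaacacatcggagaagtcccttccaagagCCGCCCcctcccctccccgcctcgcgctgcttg
Ift88: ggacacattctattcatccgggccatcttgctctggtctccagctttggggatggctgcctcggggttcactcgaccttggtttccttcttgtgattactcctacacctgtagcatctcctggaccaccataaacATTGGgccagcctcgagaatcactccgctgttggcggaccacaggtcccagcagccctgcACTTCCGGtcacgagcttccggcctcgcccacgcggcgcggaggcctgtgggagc
Sap18: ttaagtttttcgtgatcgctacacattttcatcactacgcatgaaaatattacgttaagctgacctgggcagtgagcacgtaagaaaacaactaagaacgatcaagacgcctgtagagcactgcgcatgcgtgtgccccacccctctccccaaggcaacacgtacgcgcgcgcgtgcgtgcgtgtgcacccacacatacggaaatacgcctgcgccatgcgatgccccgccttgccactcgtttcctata
Ccser2: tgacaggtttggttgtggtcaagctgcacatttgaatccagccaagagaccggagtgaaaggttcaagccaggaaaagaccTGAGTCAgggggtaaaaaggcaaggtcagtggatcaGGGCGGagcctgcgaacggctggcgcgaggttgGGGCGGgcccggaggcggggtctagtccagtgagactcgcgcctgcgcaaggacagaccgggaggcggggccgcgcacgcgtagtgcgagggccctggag
They lie at chr14:50944053-50944302 (plus strand), chr14:55092049-55092298 (minus), chr14:57423821-57424070 (plus), chr14:57797939-57798188 (plus) and chr14:36968765-36969014 (minus). Pnp encodes purine nucleoside phosphorylase of the purine salvage pathway, and Ift88 a carrier protein of cilia. Sap18 encodes a subunit of a histone deacetylase complex. The Sap18 promoter held 23 CpG and none of these motifs, and the Pnp promoter was the least GC-rich of the 5, at 46.8%, against 63.6% for Ccser2. The promoters of Anxa11 and Il17rd, whose regions were also among the 5 smallest, are not shown. They had 58.0% and 54.4% GC and no AP-1 letters, so Ccser2 does not stand for the low end. Of the 195 chromosome 14 promoters whose window overlapped a region open in every library, 69.7% held a GC box and 9.23% an ETS site. Of all 32817 promoter windows, 32.7% and 2.88% did. The latter include promoters that were not open, and their median GC was 52.4% against 63.6%. Over all 1355 chromosome 14 windows the shares were 27.2% and 2.51%. Open promoters of other chromosomes were not counted. The letters of the NR4A site (AAAGGTCA) were in 0.513% of those 195 and in 1.34% of all windows.

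The libraries were of unequal depth. The deposited lists held 14372 to 23129 usable peaks, and the background coverage recovered from them ran from 8.48 to 16.6 reads per 10 kb, deepest in the mesenteric high libraries. The fragment length recovered was 161 to 176 bp in 12 libraries and 216 to 236 bp in the other 6, which were spleen low 3 and every axillary library but high 2. Replicates differed by no more than counting noise (chi-square per region 0.512 to 0.636 within groups, 0.621 to 0.940 between), so the p-values below may measure technical spread only. Independent counts would give about 1 on this scale, and pairs from different groups stayed below that too. Among fixed marker genes, Cd3d and Ccr7 had a peak within 1 kb in all 18 libraries, Cd3e in 14 and Cd4 in 11, while Lef1 and Tcf7 had none there. Of the markers of other cells, B cell (Cd79a, Ms4a1, Pax5) and NK cell genes (Ncr1, Klrb1c) had none, Cd8a none but Cd8b1 in 18, and of the myeloid genes Itgam in 3 and Lyz2, Csf1r and Cd14 in none. Accessibility at a gene is not its expression, and a mixture of cells cannot be told apart from a change within them.

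Of the 1345 regions, 368 (27.4%) had a peak in all 18 libraries and 17.6% in only 1, against 26.3% and 19.1% on the other autosomes. Reads could be compared only in those 368, since a list gives no value where it has no peak. Chromosome 14 regions lay inside a gene more often (64.8% against 59.3%) but close to a gene end less often: 25.1% lay within 1 kb of an end of a protein-coding gene against 30.5% elsewhere, and 45.5% lay at 10 to 100 kb against 38.8%. Their median width was 429 bp against 425 bp.

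A larger share of the peaks lay on chromosome 14 in cells with high reporter, in each organ. In the spleen its share of autosomal peaks was 4.20%, 4.09% and 4.20% in the low libraries and 4.37%, 4.46% and 4.35% in the high ones. In the mesenteric node it was 3.92%, 3.91% and 3.97% in low and 4.21%, 4.16% and 4.14% in high. In the axillary node it was 4.08%, 3.89% and 4.07% in low and 4.31%, 4.45% and 4.36% in high. The low and high libraries did not overlap in any organ, and the mesenteric high libraries stood about level with the spleen low ones. The group means were 4.17% ± 0.0621 and 4.40% ± 0.0562 in the spleen, 3.93% ± 0.0353 and 4.17% ± 0.0348 in the mesenteric node, and 4.01% ± 0.108 and 4.37% ± 0.0666 in the axillary node (SD, n = 3 each). The differences were 0.229, 0.237 and 0.358 percentage points.

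The reads under the peak summits gave the same picture with less spread. A summit's reads were recovered from its deposited fold and −log10 p. Only autosomal regions with a peak in all 18 libraries entered, each with its strongest peak in a library. The chromosome 14 share of these summit reads was 4.65% ± 0.0536 in spleen low and 4.95% ± 0.00875 in spleen high. It was 4.29% ± 0.0171 and 4.62% ± 0.0216 in the mesenteric node, and 4.39% ± 0.0156 and 4.87% ± 0.0303 in the axillary node (SD, n = 3 each). For 1 library the counting error was wider than most of these spreads: spleen low 1 held 10418 of 224889 summit reads on chromosome 14, or 4.63% (Wilson 95% interval 4.55 to 4.72, for counting error only). In relative terms the share was 6.36%, 7.76% and 10.8% higher in high.

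**Figure D1:**
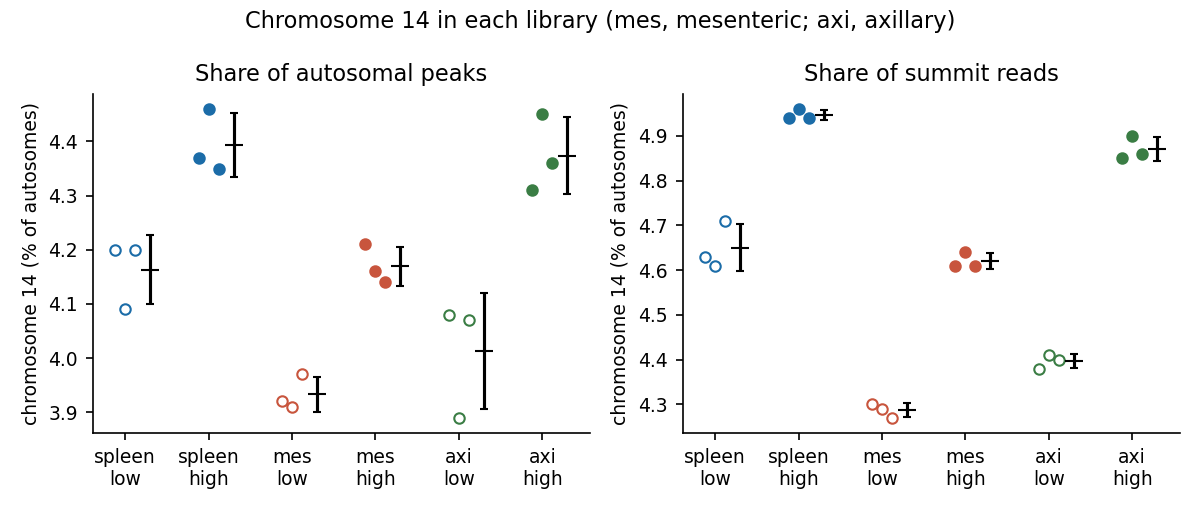
Share of chromosome 14 in each library, as a percent of autosomal peaks (left) and of summit reads in autosomal regions open in every library (right). Open points are low libraries, filled points high ones, and bars give the group mean and SD (n = 3). The axes do not start at 0; in each organ the high libraries lie above all low ones, and mesenteric low is lowest for summit reads at 4.27% to 4.30%.

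Region by region, the summit reads of the 368 regions were set on a log2 scale (reads plus 0.5) against the other autosomes, and the median over regions was taken for each library. The high minus low difference was 0.084 in the spleen, 0.116 in the mesenteric node and 0.160 in the axillary node, a mean of 0.120, or 8.67% more reads. Reads in the 10 kb around each summit (local reads) gave 0.104, 0.128 and 0.176. Within libraries of like fragment length the summit difference was 0.096 in the spleen (3 high against 2 low), 0.116 in the mesenteric node (3 against 3) and 0.158 in the axillary node (2 against 3). None of the other 18 autosomes lay above chromosome 14 in any organ by peak share, summit or local reads. Their mean summit differences ran from −0.038 (chromosome 12) to 0.052 (chromosome 11), and chromosome 11 came closest in the spleen, at 0.077. Of the 368 regions, 303 (82.3%) had a difference above 0 averaged over organs, against 49.9% of 8160 regions elsewhere, so the excess was spread over most regions rather than held by a few.

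**Figure D2:**
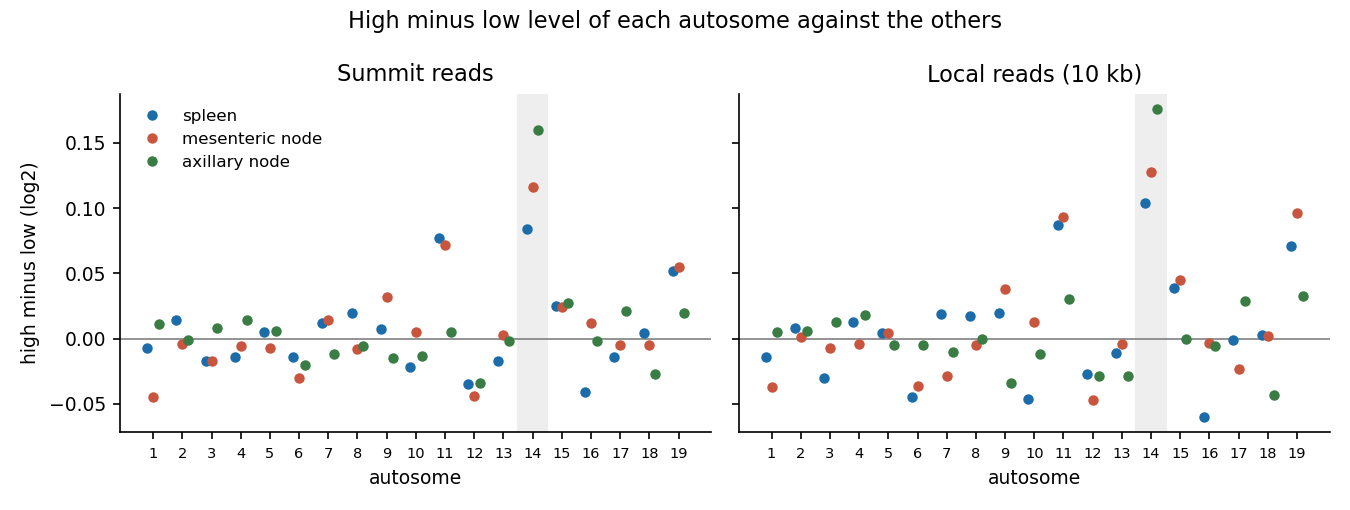
High minus low log2 difference of each autosome against the others, for summit reads (left) and reads in 10 kb around summits (right), 1 point per organ, with chromosome 14 shaded. The 3 points of chromosome 14, at 0.084, 0.116 and 0.160 for summit reads, are the highest of their organ; by summit reads chromosome 11 lies next in the spleen and mesenteric node.

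The excess was not even along the chromosome. In 10 Mb windows, the largest mean differences in summit reads were 0.222 at 50 to 60 Mb (60 regions) and 0.223 at 70 to 80 Mb (47 regions), with 0.129 between them. In the window at 50 to 60 Mb, which holds the T cell receptor alpha locus and the granzymes, the organs were alike, at 0.217, 0.234 and 0.216 for spleen, mesenteric and axillary. At 70 to 80 Mb, which holds Egr3, Rb1 and Tnfsf11, they were 0.115, 0.250 and 0.303. By summit reads none of 228 windows on the other autosomes (each with at least 10 regions) exceeded either value; their 5th to 95th percentile was −0.082 to 0.075 and their maximum 0.219, in the chromosome 15 window that holds Nr4a1 itself. By local reads that window, at 0.289, exceeded both chromosome 14 windows, at 0.242 and 0.222.

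The first 50 Mb showed a smaller excess, from 0.078 to 0.136 per window. At 80 to 90 Mb, a stretch poor in regions, the difference was below 0 in every organ (−0.116, −0.100 and −0.014), but only 6 regions entered. Further on, the window at 100 to 110 Mb had 0.131 over 12 regions, and the last windows, at 110 to 120 and 120 to 130 Mb, had 0.032 and 0.033, within the range of other autosomes. By summit reads 11 of 13 windows (84.6%) were above 0 in every organ, a count not made for the other autosomes. The window at 90 to 100 Mb among them held only 2 regions. By local reads the spleen was below 0 at 10 to 20 and 110 to 120 Mb (−0.004 and −0.016). The mesenteric node was below 0 at 90 to 100 Mb (−0.019), and every organ at 80 to 90 Mb. Grouped after these values had been seen, the 149 regions of the first 50 Mb had a mean difference of 0.101, the 158 regions at 50 to 80 Mb 0.180, and the 61 beyond 80 Mb 0.041. By local reads the 3 stretches had 0.082, 0.215 and 0.081.

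**Figure D3:**
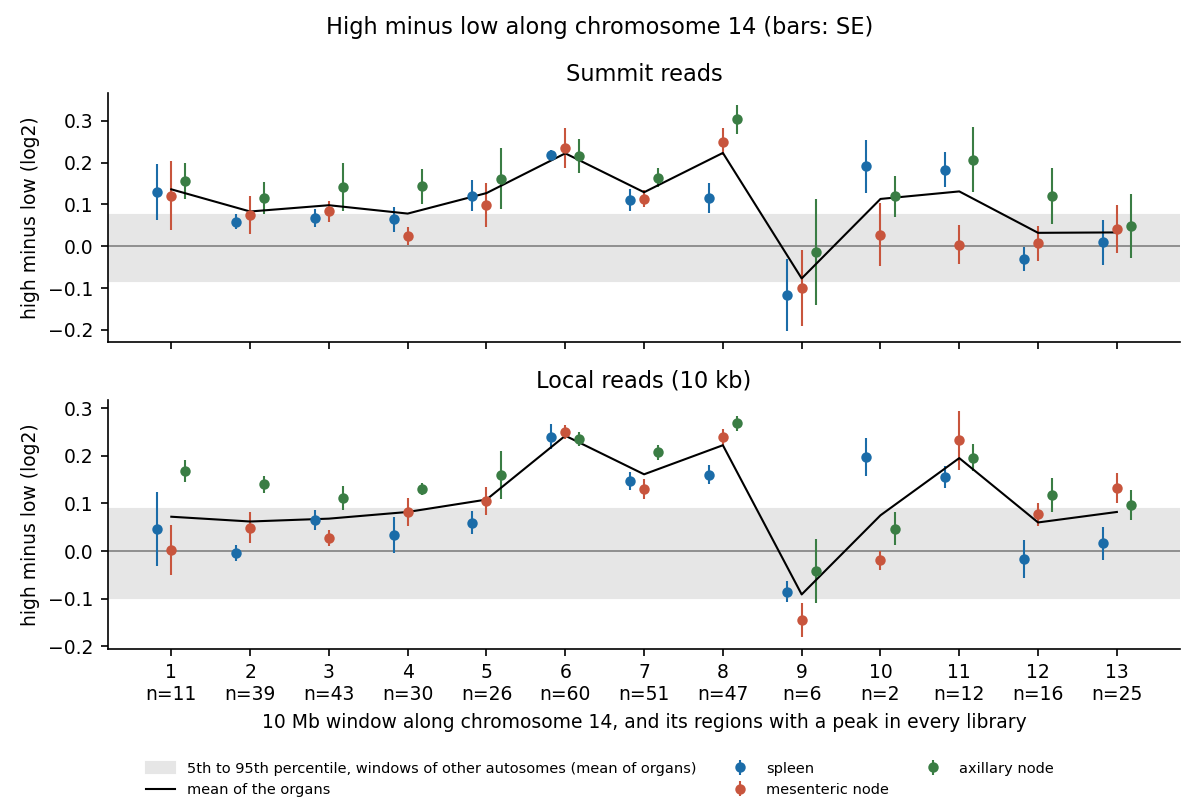
High minus low log2 difference in successive 10 Mb windows of chromosome 14, for summit reads (top) and local reads (bottom); points are organs with the SE over 3 against 3 libraries, the line is their mean, the band the 5th to 95th percentile of windows on other autosomes, and n the regions open in every library. The sixth and eighth windows stand highest, at 0.222 and 0.223 for summit reads, and the ninth, with 6 regions, lies below 0.

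Averaged over organs, the difference was above 0 in every class of distance to a gene end. For the 210 regions within 1 kb, mostly promoters, it was 0.130 on chromosome 14 and −0.003 elsewhere, averaged over organs. At 1 to 10 kb (52 regions) it was 0.151 against 0.013, at 10 to 100 kb (93 regions) 0.082 against 0.011, and beyond 100 kb (13 regions) 0.121 against −0.015. The excess over the other autosomes was thus 0.133, 0.138, 0.071 and 0.136 in order of distance, and by local reads 0.138, 0.157, 0.120 and 0.141. The organs differed for regions far from genes: at 10 to 100 kb the spleen had 0.017 against −0.060 elsewhere, so its chromosome 14 value was near 0 while still above the control. Beyond 100 kb the spleen value was below 0, at −0.018 by summit and −0.008 by local reads, against −0.107 and −0.132 elsewhere. Peak presence showed more of the change away from genes, where fewer regions are open everywhere. Within 1 kb a chromosome 14 region was open in 7.43 of 9 high libraries and 6.95 of 9 low libraries on average, and at 10 to 100 kb in 4.49 and 3.33. Elsewhere these were 7.13 and 6.72, and 4.02 and 3.25. At 10 to 100 kb the gap was widest in the mesenteric node, whose high libraries were the deepest. There 64.4% of chromosome 14 regions were open in high and 39.6% in low. In the spleen these were 45.5% and 39.4%, and in the axillary node 39.9% and 31.9%. On the other autosomes the mesenteric node also had the widest gap, at 59.7% and 39.0%. The spleen had 39.9% and 37.7% there, and the axillary node 34.3% and 31.8%.

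By strength, the weaker regions had the larger difference averaged over organs, which came mostly from the mesenteric node. In quartiles of strength among regions open in every library, from the weakest, chromosome 14 had 0.180, 0.139, 0.111 and 0.081 and the other autosomes 0.040, 0.025, 0.004 and −0.045. In the spleen the chromosome 14 values were 0.106, 0.046, 0.117 and 0.078, with no order, in the mesenteric node 0.232, 0.212, 0.091 and 0.012, and in the axillary node 0.202, 0.158, 0.124 and 0.152. The excess over control, averaged over organs, was 0.140, 0.114, 0.107 and 0.126, with no steady order. Quartiles over all autosomal regions left regions open in every library in the upper 2 only, with an excess of 0.109 over 29 and 0.122 over 339 regions. Presence could be followed in all 4 of these: from the weakest, high minus low was 0.69, 1.72, 1.41 and 0.01 libraries on chromosome 14 and 0.58, 1.26, 0.73 and 0.02 elsewhere.

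**Figure D4:**
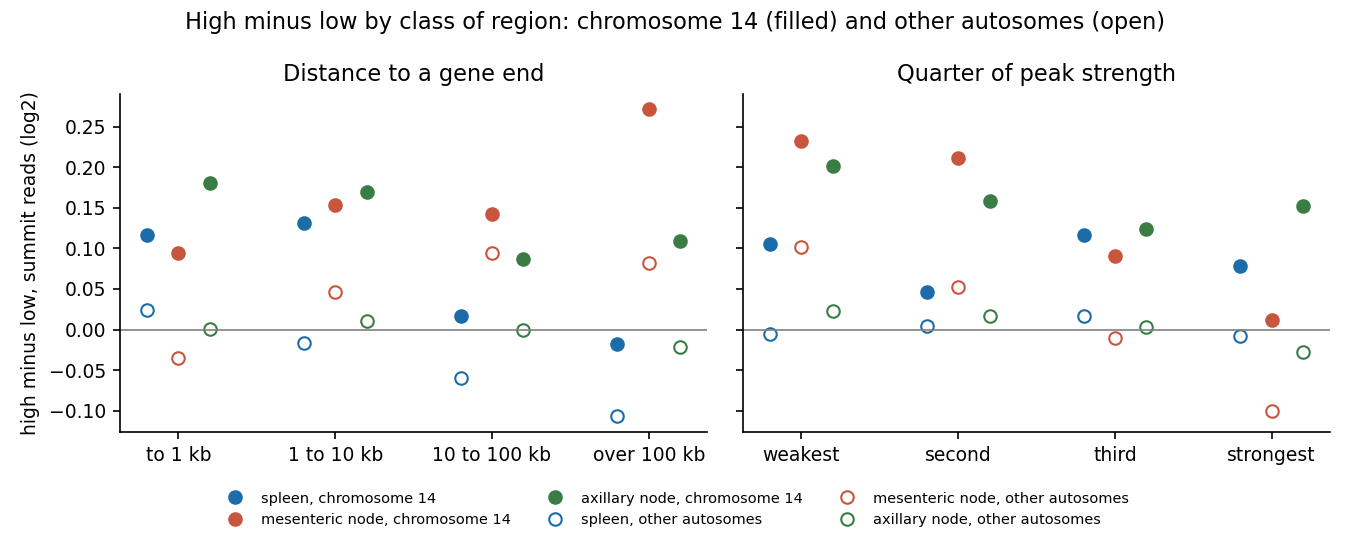
High minus low log2 difference in summit reads by distance to a gene end (left) and by quartile of strength among regions open in every library (right), per organ; filled points are chromosome 14, open points the other autosomes. In every class and organ the filled point lies above the open point of its organ, and both fall from weak to strong regions in the mesenteric node, on chromosome 14 from 0.232 to 0.012.

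Single regions were less clear than the chromosome as a whole, since a median peak had 15 summit reads. The 8 regions with the largest mean difference ran from 0.47 to 0.62, and 6 of the 8 lay at 50 to 80 Mb. Near Scel (chr14:103469214-103470036), 43436 bp from the gene, scaled summit reads were 18.6, 19.2 and 15.9 in spleen low and 29.9, 35.5 and 30.4 in spleen high. They were 16.6, 17.6 and 17.6 against 22.3, 25.3 and 20.3 in the mesenteric node, and 18.6, 25.8 and 20.6 against 33.5, 26.4 and 27.6 in the axillary node. The groups did not overlap in any organ, which held for 1 other chromosome 14 region by summit reads, inside Polr3d, a subunit gene of RNA polymerase III (named after its values were seen; 2 of 368 regions, 0.543%, against 0.270% of all 8528 autosomal regions).

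At the Zfhx2 promoter (chr14:55092084-55092631) the reads were 10.8, 10.1 and 11.6 in spleen low and 19.6, 17.3 and 18.3 in spleen high. They were 9.86, 11.2 and 12.6 against 13.6, 21.6 and 14.4 in the axillary node, and in the mesenteric node the groups met, at 14.7 for the highest low and 14.6 for the lowest high library. The Sap18 promoter region (chr14:57797870-57798620) had 14.7, 14.2 and 10.6 against 22.7, 21.3 and 22.3 in the spleen, with overlap in the mesenteric node. At Pnp (chr14:50944233-50944690) the spleen libraries had 11.8, 8.10 and 16.9 in low and 18.6, 24.4 and 20.3 in high, a difference of 0.81 against 0.31 and 0.36 in the nodes. By summit reads the spleen had the largest of the 3 organ differences at each of these 3 promoters. By local reads this held at Zfhx2 and Pnp, but at Sap18 the axillary node had 0.56 against 0.48 in the spleen.

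At Tnfsf11, the gene of the cytokine RANKL, the spleen had the smallest difference instead. Its region inside the gene (chr14:78306861-78307434) had 12.1, 12.3 and 12.6 in axillary low and 31.4, 20.4 and 29.8 in axillary high, a log2 difference of 1.08, and 0.65 in the mesenteric node. In the spleen the groups overlapped, at 21.6, 19.2 and 30.6 against 22.7, 21.3 and 31.5 (0.08). By summit reads a region 224528 bp from Serp2 (chr14:76781295-76781910) had 0.77 in the axillary node, 0.63 in the mesenteric node and 0.18 in the spleen. By local reads the spleen was not the smallest there, with 0.92, 0.61 and 0.70 in the same order. Its high libraries then lay above all low ones in each organ. The region near Tmem260 (chr14:48421837-48422546) differed most in the mesenteric node, at 5.87, 6.85 and 13.7 in low and 18.4, 21.5 and 21.1 in high. The difference between organs was not tested for single regions.

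**Figure D5:**
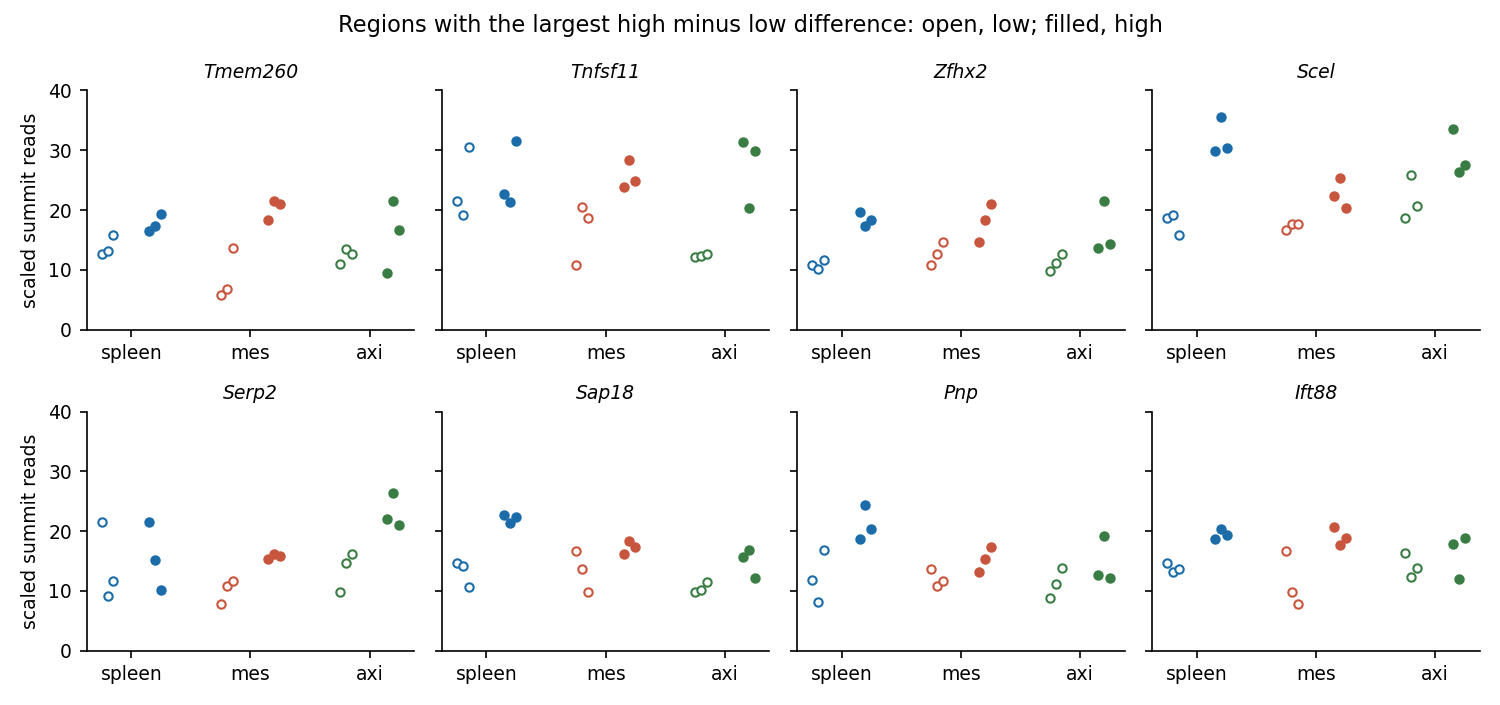
Scaled summit reads of the 8 chromosome 14 regions with the largest high minus low difference, 1 point per library, by organ (mes, mesenteric; axi, axillary); open points are low, filled points high. Of the 8, only the Scel region has its high libraries above all low ones in each organ; Tnfsf11 and Serp2 overlap in the spleen only.

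The 5 regions with the smallest difference ran from −0.24 to −0.18, and all lay in the first 40 Mb. Lrrc3b (chr14:15272884-15273569) was lower in spleen high, at 16.5, 13.2 and 19.3 against 24.5, 21.3 and 25.4, but overlapped in both nodes. By local reads it had −0.06, and the others, near Ccser2, Anxa11, Il17rd and Oxsm, had −0.07, 0.03, 0.17 and −0.14. The sign therefore turned at the Anxa11 and Il17rd promoters. The 8 strongest regions, with a fold over background of 11.9 to 18.8, had differences of −0.05 to 0.07 averaged over organs. At Uggt2 and Kat6b, a histone acetyltransferase gene, these were 0.06 and 0.02. Single organs could move more, with opposite signs. In spleen, mesenteric and axillary, Pdhb had 0.19, −0.18 and 0.20 and Fdft1 0.10, −0.19 and 0.25. Kat6b had less, at 0.09, −0.07 and 0.05. The strongest quartile of the other autosomes had −0.045 averaged over organs.

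Counting regions whose 3 high libraries lay above all 3 low ones by summit reads gave 56 of 368 in the spleen (15.2%), 70 in the mesenteric node and 78 in the axillary node (21.2%). Over all autosomal regions these shares were 7.54%, 10.0% and 7.08%. The reverse was seen in 10, 21 and 5 regions (2.72%, 5.71% and 1.36%, against 6.55%, 10.6% and 5.68%). No region was below in every organ by summit reads (0% against 0.0469%). By local reads, which are more numerous, 89, 122 and 116 regions were above (24.2%, 33.2% and 31.5%), against 9.31%, 13.3% and 7.79% of all. The reverse was seen in 16 regions in the spleen (4.35% against 9.22%) and 4 in the axillary node (1.09% against 7.33%). In the mesenteric node the reverse was seen in 18 of 368 regions (4.89%), against 1110 of all 8528 autosomal regions. By local reads 22 regions were above in every organ (5.98% against 0.657%) and 1 below (0.272% against 0.317%), and 17 of the 22 lay at 50 to 80 Mb. They were named after their values were seen and included regions within 1 kb of an end of Psme2, a proteasome activator subunit, Ctsb, the protease cathepsin B, and Rb1, the retinoblastoma protein. An Elf1 region (ETS family factor) and a region 2438 bp from Egr3 were also among them.

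For the presence of peaks, 249 of the chromosome 14 regions had a peak in 6 to 12 libraries. Peak presence in high against low libraries helped to choose the chromosome, so the counts that follow describe it and test nothing. By Fisher's exact test (two-sided, 9 against 9 libraries, Benjamini-Hochberg over 5737 regions) 0 were called, as were 0% of all regions. At an unadjusted p under 0.05, 26 of 249 (10.4%) were more frequent in high and 0 in low, against 5.84% and 0.261% of all regions. The libraries differ in depth, and the count was 12 of 181 at equal list lengths (6.63% against 1.68% on the other chromosomes) and 16 of 231 after thinning to the shallowest library (6.93% against 3.86%). In the 15 with the smallest p, 9 lay inside a gene and 1 within 1 kb of a gene end. Of all chromosome 14 regions 64.8% and 25.1% did. Those shares include regions open in every library, many of them near gene ends, which could not enter this count.

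The most lopsided was a region 207585 bp from Serp2 (chr14:76764403-76764915), open in 9 libraries of the high groups and 0 of the low groups. Its summit reads in high were 10, 5 and 11 in the spleen, 18, 12 and 11 in the mesenteric node and 7, 7 and 8 in the axillary node. A region 36013 bp from Zmiz1 (chr14:25421547-25422178), the gene of a Notch coactivator in T cell development, was open in 9 and 1. A region inside Tnfrsf19 (chr14:61012399-61012844), a TNF receptor family gene, had 9 against 2, and 1 inside Fhit (chr14:11036224-11036628) 7 against 0. Regions inside Kat6b (chr14:21636585-21636984) and Bmp1 (chr14:70519883-70520766) had 6 against 0. Another 8 were near Olfr726, Nefl, Thoc7, Siah3, Tbc1d4, Rap2a, Cldn10 and Zcchc24. They ran from 9 against 3 to 7 against 1.

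Per organ, a peak in all 3 high and 0 of 3 low libraries was seen in 16 of 622 regions in the spleen (2.57% against 1.40% of all), 51 of 725 in the mesenteric node (7.03% against 6.06%) and 15 of 517 in the axillary node (2.90% against 1.50%). The reverse was seen in 3, 0 and 2 (0.482%, 0% and 0.387%, against 0.657%, 0.105% and 0.574%). The mesenteric counts go with deeper high libraries there, at 16.5 to 16.6 against 11.7 to 12.6 background reads per 10 kb, whose part in them was not tested. The strongest of the high ones included regions near Siah3 and inside Cldn10 in the spleen, inside Tbc1d4 and near Pnp2 in the mesenteric node, and at Pspc1, Itm2b and Tnfrsf19 in the axillary node.

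Among genes of T cell biology, lists were set up by role: 67 protein-coding genes of chromosome 14 were the nearest gene of 202 regions, 40 of them open in every library. Of these 40, 33 had a summit difference above 0 and 37 a local difference above 0, or 82.5% and 92.5%, beside 82.3% and 87.5% of all 368 regions. Their medians were 0.15 and 0.17, beside 0.132 and 0.142. All 22 at 50 to 80 Mb were above 0 by summit reads, beside 150 of all 158 there, and 11 of the 18 elsewhere (61.1%, beside 72.9%). The counts for single lists below stand beside the same 82.3% of all regions, and no list was tested against the rest.

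In the receptor locus itself, the Tcra interval (chr14:52427967-54224198) held 26 regions over its V, D and J segments, of which 9 were found in 1 library only and 2 in all 18. Both of the latter lay at the Trav1 end (chr14:52427538-52428023 and chr14:52436677-52437215), with summit differences of 0.29 and 0.37. The region over Trac, the constant part (chr14:54222264-54222739), was open in 7 libraries of the high groups and 3 of the low groups. Past Trac, between it and Dad1, where the alpha enhancer is known to lie, 2 regions were open in every library. The first (chr14:54227257-54227934) had 21.5, 17.6 and 23.5 in mesenteric low and 26.9, 32.3 and 35.4 in mesenteric high, a difference of 0.58, but −0.02 in the spleen. The other (chr14:54233214-54233769) had differences of 0.42, 0.33 and 0.42 in spleen, mesenteric and axillary, with overlap in the axillary node only.

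Among receptor signal genes and kinases, 6 of 8 regions open in every library were above 0 (median 0.144), with Ptk2b, a kinase of adhesion and calcium signals, at 0.21, Mapk8 (JNK1) at 0.15 and Prkcd at −0.05. Of transcription factors, Irf9, of interferon signalling, had 0.32 at its promoter and Egr3 0.10 by summit and 0.32 by local reads. A second Egr3 region, 453 bp from the gene (chr14:70076648-70077081), was open in 8 libraries of the high groups and 3 of the low groups. All 7 chromatin regions were above 0, among them Supt16 (a histone chaperone subunit, 0.26), Rb1 (0.24), Parp2 (0.19) and Pbrm1 (0.18). Of TNF and cytokine receptor genes, 4 of 5 were above 0 (median 0.199). All 4 for survival and death were above 0, as at Bnip3l, a mitophagy receptor (0.21). Migration and G protein receptor genes were split, 4 of 8, with a median of −0.028 by summit and 0.113 by local reads. Gpr183, the receptor for oxysterols in lymphoid organs, had −0.10 and −0.07, and Dock9 −0.15 and −0.13, both near the far end of the chromosome. The granzymes and related proteases had 8 regions and none open in every library. The granzyme region with the most uneven presence lay 22273 bp from Gzmb (chr14:56284361-56284854), open in 7 libraries of the high groups and 1 of the low groups.

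The organs also differed in chromosome 14, in a contrast that the choice of the chromosome did not use. Averaged over low and high, its share of summit reads was 4.80% in the spleen, 4.63% in the axillary node and 4.45% in the mesenteric node. On the log2 scale of summit reads the spleen stood 0.118 above the mesenteric node and 0.065 above the axillary node, and the mesenteric node stood at −0.053 against the axillary node. In an exact permutation test of organ labels within reporter level (two-sided, 400 relabellings), each of these 3 differences had p = 0.005, the smallest the design allows, and 0.005 after Benjamini-Hochberg adjustment over the 3 pairs. Were the 3 replicates of a group only repeats of 1 sample, no pair could have gone below 0.5. Of the 18 other autosomes, 0 lay farther from 0 than chromosome 14 for either spleen comparison and 4 did for mesenteric against axillary by summit reads. By local reads these were 0 for spleen against mesenteric, 2 for spleen against axillary and 6 for mesenteric against axillary.

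By share of peaks the differences were 0.229 points for spleen minus mesenteric (adjusted p = 0.015, exact permutation test), 0.088 for spleen minus axillary (0.070) and −0.141 for mesenteric minus axillary (0.030). With the replicate number as a block, 0.229 and −0.141 no longer passed (adjusted p = 0.062 for each, exact permutation test). Without it, the last no longer passed when mesenteric low 1 or 2, mesenteric high 2 or 3, or axillary low 1 or 3 was left out, at −0.139 to −0.124 (adjusted p 0.053 to 0.060). Spleen minus axillary passed without axillary high 2, at 0.106 (adjusted p = 0.025, exact permutation test). Spleen and axillary libraries also differ in fragment length. Among libraries of like length, summit reads differed by 0.024 for spleen high against axillary high 2, and by 0.124 for spleen low 3 against axillary low. By share of peaks these were −0.06 and 0.19 points. Spleen minus mesenteric among short-fragment libraries was 0.102 in high and 0.122 in low.

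The difference between spleen and mesenteric node lay beyond 40 Mb. In the first 4 windows it was −0.030, 0.060, 0.001 and −0.004, and in the 9 that follow it ran from 0.144 to 0.281, all above the 95th percentile of other autosomes' windows (0.103). The 5 of these with at least 20 regions ran from 0.144 to 0.201. Spleen minus axillary was highest at 50 to 60 Mb among windows of at least 20 regions, at 0.165 against a 95th percentile of 0.116. Mesenteric minus axillary ran from −0.237 to 0.035, and only the window of 6 regions at 80 to 90 Mb lay outside −0.190 to 0.166. The stretch where spleen exceeded mesenteric was thus wider than the 50 to 80 Mb stretch where high most exceeded low.

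The size of the high minus low difference in summit reads was not the same in each organ. Spleen minus axillary was −0.075, mesenteric minus axillary −0.044 and spleen minus mesenteric −0.031. By share of peaks these were −0.128, −0.121 and −0.008 percentage points. They rest on the high and low values that chose the chromosome and are given as a description. In libraries of like fragment length the axillary difference was 0.158 and the spleen difference 0.096.

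For single regions across organs, 331 chromosome 14 regions had a peak in 5 to 13 libraries. With the exact Fisher-Freeman-Halton test (Benjamini-Hochberg over 7630 regions) 0 were called, as were 0% of all. At an unadjusted p under 0.05 there were 18 (5.44%), against 11.2% of all regions. The smallest adjusted p, 0.0881, was shared by 2 regions. The first, 565 bp from Trav13-5 in the receptor locus (chr14:53794502-53794890), had a peak in 6 of 6 spleen, 6 of 6 mesenteric and 0 of 6 axillary libraries. Its summit reads ran from 8 to 14 in the spleen and from 6 to 17 in the mesenteric node, and were the same in low and high by presence, at 6 libraries each. The other, 52118 bp from Ccdc66 (chr14:27560413-27560844), had a peak in all 6 mesenteric libraries only, with 5 to 10 reads. The Serp2 promoter region (chr14:76556376-76556977) had 6 spleen, 4 mesenteric and 0 axillary libraries. A region inside Lcp1, the gene of the actin-bundling protein L-plastin, had 1, 6 and 0. Of the 18, the axillary node alone had the fewest peaks in 14, as in 547 of the 851 over all chromosomes, and its lists were the shortest or nearly so, which was not corrected for here.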

How the data were processed

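ATAC-seq of 18 libraries (500000 cells, 15 min lysis, 30 min tagmentation at 37 °C, per the labels' protocols) was deposited as 1 MACS narrowPeak list each. Per the submitters' processing notes, Trimmomatic 0.33, Bowtie2, bedtools and MACS were used with build mm10; other versions and settings were not given in the sources used here. The deposited columns hold a score, a fold enrichment (ratio) and −log10 p and q of each peak, as the authors' caller gave them, and the summit's position. The score equals the integer part of 10 times −log10 p in 314754 of 314829 peaks, and no −log10 p is under 5.001. Peaks on sequences other than chromosomes 1 to 19 and X (404) were set aside.

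Peaks were merged (1 bp) into regions. Fold is (reads + 1)/(background + 1) and p a Poisson tail, so that whole summit reads and the local background were solved for each peak, with a single match in 99.3%. Reads were taken as log2(reads + 0.5) over regions in all 18 libraries, less each region's mean, less the median of the other autosomes; scaled reads set each library's sum to the mean sum. Strength is the mean rank of −log10 p. Genes, ends and promoters came from RefSeq (GRCm38.p6). Python 3.11.15, numpy 2.4.6, pandas 2.3.3 and scipy 1.17.1 were used, and the scripts were tested on simulated data. Tests are Fisher's exact test, the Fisher-Freeman-Halton test and exact permutations.

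Named regions are up to 15 per direction by Fisher's p for high against low, the 8 strongest, the 8 largest and 5 smallest differences, up to 4 per organ and direction by presence, up to 8 by p across organs, and the gene lists. Members and lists were chosen with earlier results of these data known. Some items are not reported here. Of 75 genes listed, 3 were not on chromosome 14 and 5 were not protein-coding. Over the 9 pairs of low and high libraries with the same replicate number, deviations correlated at −0.012 to 0.019. Since replicates differed by no more than counting noise, this cannot tell whether same-numbered libraries were paired. Stricter peaks, equal list lengths, thinned reads, other windows and limits, local reads, other pseudocounts and single libraries left out were tried as alternatives.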

Additional observations from a re-analysis of the deposited data

Results flagged for a closer look

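The high minus low difference on chromosome 14 was not the same size in every organ by summit reads. Spleen minus axillary was −0.075 and mesenteric minus axillary −0.044 on the log2 scale. Each drew attention because a permutation test of the difference between the organs' differences gave an adjusted p of 0.015. That test uses the high and low values on which the chromosome was chosen, so it is no independent support. Groups of 3 libraries were not screened for outlying values.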

How the results depend on the processing

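The mean high minus low difference in summit reads (0.120) was 0.136 by local reads and 0.102 with 5 in place of 0.5 added to the reads, and stayed above 0 in each organ under every alternative run. Regions more frequent in high at an unadjusted p under 0.05 (26) numbered 12 at equal list lengths, 16 when a peak had to cover at least 50% of a region, 16 after thinning to the shallowest library and 17 with the replicate block. In that order these were 6.63%, 5.73%, 6.93% and 6.83% of the regions tested, against 1.68%, 3.62%, 3.86% and 2.59% on the other chromosomes. There were 4 to 10 when 1 replicate number was left out, with fewer libraries in the test (1.48% to 3.65%, against 1.15% to 1.68%). With the replicate block, the organ differences in peak share no longer passed: spleen minus mesenteric 0.229 (adjusted p = 0.062, exact permutation) and mesenteric minus axillary −0.141 (0.062); the block changed no other call. In the fit with regions of at least 12 libraries, the mesenteric minus axillary difference of differences was −0.026 (adjusted p = 0.095, permutation). Without 52 to 55 Mb, the spleen minus mesenteric difference of differences in peak share was 0.053 instead of −0.008, neither past the threshold. By local reads Anxa11 was 0.03 and Il17rd 0.17. The cause was not tested in any of these.

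With each library left out in turn, the high minus low difference was 0.254 to 0.286 points in peak share and 0.117 to 0.126 in summit reads. Organ differences in peak share were 0.213 to 0.247, 0.056 to 0.106 and −0.172 to −0.123 (spleen minus mesenteric, spleen minus axillary, mesenteric minus axillary). The differences of differences were −0.043 to 0.013, −0.164 to −0.066 and −0.156 to −0.059 in peak share, and −0.043 to −0.026, −0.088 to −0.059 and −0.053 to −0.028 in summit reads. Windows above 0 in every organ were 69.2% to 84.6%. The organ test of presence was not run with a block. Depth limits single regions: a median peak had 15 summit reads and 49 reads in 10 kb, and a region without a peak in a library has no value there.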

Other observations

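Of 32 microRNA hairpins on chromosome 14, 12 lay within 2500 bp of an open region and 10 of those within that distance of a region open in every library. The hairpins of the Mir17 cluster, known for lymphocyte growth, lay 1178 to 1934 bp from the region at chr14:115041560-115042493, whose high minus low difference was −0.03 by summit and 0.01 by local reads. Mir3077 lay inside the Sap18 region, which had one of the 8 largest differences, and Mir5130 lay in the Kctd12 region (chr14:102982150-102983339), with 0.30 and 0.51.

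Promoters at 50 to 80 Mb differed in letters from those elsewhere on the chromosome. Of 76 promoter windows there that overlapped a region open in every library, 55.3% held a GC box and 11.8% an ETS site. Of 119 elsewhere, 79.0% and 7.56% did. The letters TATAAA were in 0% and 6.72%. Over the 195 windows, GC content and the high minus low difference had a Pearson correlation of −0.16, given as a description since neighbouring promoters are not independent. A match in letters is not a bound site.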
